A study of Homo sapiens with 4 samples.

Results

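An antisense RNA locus is a place in the genome where RNA is read from the strand opposite a gene, and 291 loci that the deposited tables label antisense were expressed here. They were chosen by the deposited levels and labels, with 3 criteria: an antisense biotype in at least 1 library, the quantifier's status OK in all 4 libraries, and a level of at least 1 FPKM in at least 2 libraries. FPKM is a fragment count scaled to transcript length and to library size, which is meant to make loci of different length comparable. At very short loci this scaling is large. The most frequent FPKM above 0 at loci of 60 bp was 16128 to 22042 over the 4 libraries, so levels of short and long loci may not be comparable. Of 3858 antisense loci listed at the same position in all 4 libraries, 292 reached the level and 1 of those was left out by its status. Levels chose the members, so that they are expressed is no finding. The biotype is that of the tables: of the 272 members found in GENCODE release 29, 263 were antisense there and 4 protein-coding, and the others were pseudogenes, a processed transcript and a bidirectional promoter RNA. RN7SL1 and SCARNA9, which carry the symbols of a signal recognition particle RNA and a small Cajal body RNA, are members by the tables' biotype as well. For each member the widest other listed locus that overlaps it was read as well.

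The cells were LNCaP, an established human prostate cancer line grown from a lymph node metastasis, at passage 22 in medium with 10% serum. They were transfected for 48 h with 2500 ng of plasmid and 12 µL of Lipofectamine 2000, either a CRYM open reading frame expression clone or the empty control of the same pReceiver-M72 vector. CRYM codes for mu-crystallin, which holds thyroid hormone in the cytosol. Each group has 2 libraries of polyadenylated RNA, called biological replicates in the labels. Separate cultures are not named, so the spread behind each p-value may be technical. The transfection was transient, and the share of cells that took up plasmid was not used here. The comparison asks which RNAs differ when CRYM is overexpressed.

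Antisense RNAs fall into kinds that differ in how they meet the gene they are named for. Some run through exons of the opposite gene, so that their sequence is the reverse complement of its mRNA. Others lie in an intron of it, and others start beside its promoter and run away from it as divergent transcripts. Antisense transcripts are known to act on the opposite gene in some cases, through chromatin at a shared promoter or through pairing of the RNAs, and to have no known effect in many. Both strands are copied from the same bases. A read wholly inside an antisense exon that lies over a sense exon can be assigned only with a strand-specific assay. The libraries were made with a stranded kit, per the labels' protocols, but the sources used here do not say that strand was kept in quantification. Without strand, reads of a gene and of its antisense partner cannot be told apart.

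The overlap can be read in the letters. The first 50 bases of antisense exon that lie wholly in the coding sequence of the opposite gene, the length of a read in this study, are shown for 3 members whose levels are described below. They come from GENCODE release 29 transcripts on build GRCh38, written 5′ to 3′ as the antisense RNA has them, in T. RP5-940J5.9 runs against GAPDH, RP11-442H21.2 against DDIT4 and RP11-787I22.3 against SESN1. The reverse complement of each stretch occurs in the mRNA of the opposite gene, in 9, 1 and 4 of its annotated transcripts.
RP5-940J5.9 (chr12:6537936-6537985, minus strand): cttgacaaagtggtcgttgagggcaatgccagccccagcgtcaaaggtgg
RP11-442H21.2 (chr10:72275136-72275185, minus strand): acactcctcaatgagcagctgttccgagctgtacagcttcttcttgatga
RP11-787I22.3 (chr6:108998513-108998562, plus strand): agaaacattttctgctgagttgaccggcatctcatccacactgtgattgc

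Another arrangement is a start close to that of the gene. RP11-798M19.6, now named SAP30-DT, and AC062029.1, now named EIF2AK3-DT, are divergent transcripts whose promoter windows overlap those of SAP30 and EIF2AK3 on the opposite strand. EIF2AK3-DT also counts as exon over exon, through 38 bases over EIF2AK3. The windows run from 250 bases before to 50 after the start, from RefSeq on build GRCh38.p14. Capitals mark 2 motifs searched on both strands, CCAAT (or ATTGG), the core of the NF-Y site, and GGGCGG (or CCGCCC), the GC box of Sp1-type factors.
SAP30-DT (chr4:173370649-173370948, minus strand): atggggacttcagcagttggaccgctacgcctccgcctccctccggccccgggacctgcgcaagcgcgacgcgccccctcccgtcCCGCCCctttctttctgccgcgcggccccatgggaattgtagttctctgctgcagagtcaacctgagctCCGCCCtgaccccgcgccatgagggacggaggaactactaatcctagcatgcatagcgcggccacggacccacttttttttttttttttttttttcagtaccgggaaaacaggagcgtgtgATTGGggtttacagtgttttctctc
SAP30 (chr4:173370704-173371003, plus strand): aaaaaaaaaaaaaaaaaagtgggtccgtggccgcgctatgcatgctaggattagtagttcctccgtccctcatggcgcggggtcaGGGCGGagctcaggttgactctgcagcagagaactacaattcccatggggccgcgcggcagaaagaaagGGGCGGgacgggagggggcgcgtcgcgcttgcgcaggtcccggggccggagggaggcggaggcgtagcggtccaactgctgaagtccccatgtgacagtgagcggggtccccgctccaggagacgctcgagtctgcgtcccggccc
EIF2AK3-DT (chr2:88627579-88627878, plus strand): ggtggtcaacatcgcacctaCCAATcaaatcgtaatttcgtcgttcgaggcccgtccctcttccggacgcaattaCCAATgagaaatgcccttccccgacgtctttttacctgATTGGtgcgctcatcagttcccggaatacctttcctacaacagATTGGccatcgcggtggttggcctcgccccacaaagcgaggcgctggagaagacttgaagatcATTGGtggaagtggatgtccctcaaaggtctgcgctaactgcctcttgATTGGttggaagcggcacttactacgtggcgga
EIF2AK3 (chr2:88627415-88627714, minus strand): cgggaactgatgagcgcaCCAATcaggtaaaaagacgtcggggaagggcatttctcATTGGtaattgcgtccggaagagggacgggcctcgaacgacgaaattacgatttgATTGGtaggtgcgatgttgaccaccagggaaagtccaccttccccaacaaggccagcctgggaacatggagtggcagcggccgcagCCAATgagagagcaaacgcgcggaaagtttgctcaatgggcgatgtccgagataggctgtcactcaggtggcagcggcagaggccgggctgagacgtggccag

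The windows of SAP30-DT and SAP30 share 245 bases, and their starts lie 256 bases apart. Those of EIF2AK3-DT and EIF2AK3 share 136 bases, and their starts lie 365 bases apart. The SAP30-DT window holds 2 GC boxes and 1 CCAAT motif, and the SAP30 window 2 GC boxes and 0 CCAAT motifs. The EIF2AK3-DT window holds 6 CCAAT motifs and 0 GC boxes, and the EIF2AK3 window 4 and 0. Among the 47 members with a RefSeq promoter window, found by their current symbols and leaving out chromosome 8, 66.0% held a GC box, 34.0% a CCAAT motif and 2.13% the TATA box letters TATAAA on either strand. Over all 27305 genes with such a window, expressed here or not, the shares were 44.6%, 35.7% and 12.0%. The members were chosen by level, and a comparison with expressed genes alone was not made. The median number of CG dinucleotides was 24 in the member windows and 14 in all windows, where divergent starts beside protein-coding promoters count in both. A match describes the letters only.

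CRYM, which checks the transfection, was listed at 1.17 and 0.977 FPKM in the empty vector libraries and at 65.3 and 72.5 FPKM in the CRYM vector libraries (hg19 chromosome 16, 21250195 to 21314404). The absolute depth is unknown. Set to 1 in the first empty vector library, it was 1.15 in the second, and 0.842 and 1.07 with the CRYM vector. Of the 10 luminal prostate markers looked for, HOXB13 and SPDEF carried a name at a shared position, at 110.3 to 128 FPKM and 46.8 to 86.9 FPKM, and the other 8 were not analysed here. Both fell with the CRYM vector, by 0.19 and 0.84 on the log2 scale (limma adjusted p = 0.0275 and 0.00517), and their part in the results below was not tested. Of the other markers looked for, HLA-DRA, of immune cells, stood at 1.56 to 2.40 FPKM, INSM1, of neuroendocrine cells, at 0 to 0.0138 FPKM, and CLDN5, of endothelial cells, at 0.136 to 0.275 FPKM. No basal or stromal marker carried a name at a shared position. Among 18 genes of the RNA exosome and its adaptors, which degrade many antisense transcripts in the nucleus, EXOSC5 alone carried a name, at 14.6 and 19.6 FPKM against 12.5 and 18.1 FPKM. It did not pass (limma adjusted p = 0.676), and none of the 10 genes that bind or edit double-stranded RNA carried a name there.

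The members lie on 23 chromosomes, and their loci are 140 to 171931 bp long with a median of 1818 bp. Mean FPKM over the 4 libraries ran from 0.607 to 2685, with a median of 3.30. It reached 100 FPKM at 7 members and 10 FPKM at 77, and was under 2 FPKM at 106. At the edge of the level criterion, the second highest library of AP000438.2, RP11-414H17.5 and RP11-445O16.3 stood at 1.01, 1.02 and 1.02 FPKM, just inside. Just outside were FOXD2-AS1, RP13-317D12.3 and the locus ENSG00000267613, at 0.993, 0.986 and 0.980 FPKM.

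By their annotation in GENCODE release 29, 272 of the 291 members could be classed. In 139, exons of the antisense RNA lay over exons of a protein-coding gene on the opposite strand. In 87 the antisense RNA overlapped the span of such a gene, wholly or in part, without touching its exons. These are called within a gene span below, though some, such as SAP30-DT, lie mostly outside the gene. In 46 no opposite protein-coding gene overlapped the antisense RNA. Of the 139, 58 had every exon base over an exon of the opposite gene. In 82 of the 139 the overlap included coding sequence, and in 56 it was limited to untranslated regions. Of the 117 with an intron, 0 shared an intron base for base with the opposite gene.

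The level of a member relative to the locus it overlaps differed between the classes, as a description. The overlapped locus was the widest one listed and need not be the opposite gene that defines the class. Of overlapped loci matched to a gene by position, 139 were on the opposite strand and 19 on the same strand. The ratios below are therefore not all of antisense to sense. Mean FPKM had a median of 7.54 in the exon over exon class, 1.71 in the class within a gene span and 2.04 in the class without an opposite gene. Of the 12 members of highest mean FPKM, 12 were exon over exon. Among 91 exon over exon members whose overlapped locus was also tested, the antisense level was a median of 1.00 times that of the overlapped locus, with quartiles of 0.388 and 1.62, and 46 stood above it. Among 49 members within a gene span the median was 0.0724 times, with quartiles of 0.0408 and 0.310, and 1 stood above. Across the members, log2 levels of the 2 loci of a pair had a Pearson r of 0.75 (Spearman rho 0.66) in the first class and of -0.04 (rho -0.01) in the second. These values come from the same 4 libraries and the same sequence, and how far assignment of sense reads sets the level of antisense exons was not tested. The 2 loci of a pair can also differ in length, and the part of length in these ratios was not tested.

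**Figure D1:**
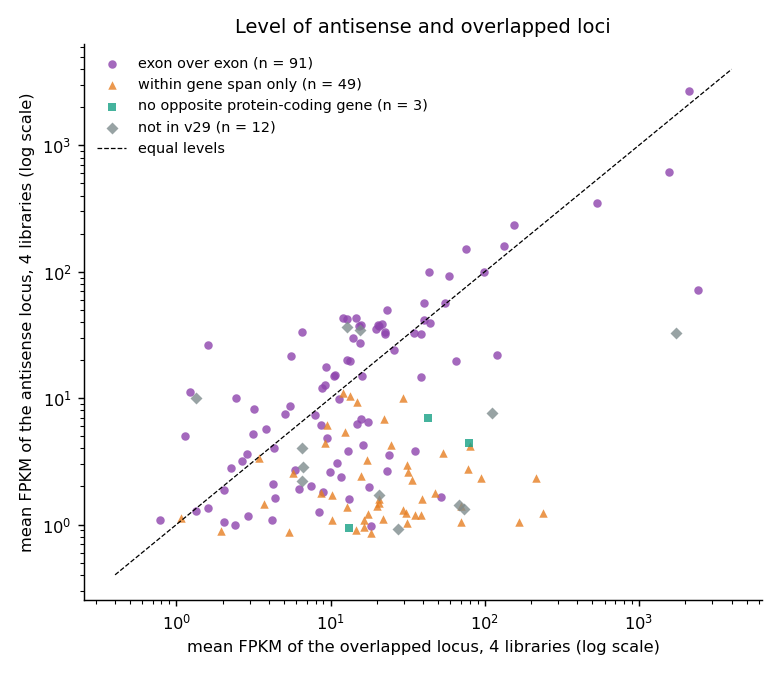
Mean FPKM over the 4 libraries of each antisense locus (vertical, log scale) against that of its overlapped locus (horizontal, log scale), for 155 pairs by class, with a dashed line of equal levels. The 91 exon over exon members scatter around the line, with 46 above it, while 1 of the 49 members within a gene span stands above it.

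The members of highest level ran against some of the most abundant genes of the cell. RP5-940J5.9 (hg19 chromosome 12, 6646960 to 6647536), against the glycolytic enzyme gene GAPDH, was listed at 2828 and 3019.7 FPKM with the empty vector and at 2387 and 2504 FPKM with the CRYM vector. The GAPDH locus itself was at 2523 and 2372 against 1743 and 1820.4 FPKM. Both loci were lower in both CRYM vector libraries, and the groups did not overlap. The log2 difference, here and below of log2(FPKM + 1), CRYM vector minus empty vector, was -0.26 (SE 0.05, limma adjusted p = 0.0466) for the antisense locus and -0.46 (SE 0.05, limma adjusted p = 0.0171) for GAPDH. The antisense locus did not pass after quantile normalization, at -0.09 (limma adjusted p = 0.477), with no filter on FPKM (adjusted p = 0.133) or with no variance trend (adjusted p = 0.0570).

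RP11-290D2.6, against TPT1, which encodes the translationally controlled tumour protein, was at 698 and 696 FPKM with the empty vector and at 498 and 586 FPKM with the CRYM vector. Both values with the CRYM vector were lower, at a log2 difference of -0.37 (SE 0.10) that did not pass (limma adjusted p = 0.0750). RP11-138I1.4, against the ubiquitin gene UBB, was at 339 and 326 FPKM against 363 and 366 FPKM, a difference of 0.13 (SE 0.03) that did not pass (limma adjusted p = 0.0546). It was called lower after scaling to the same total, at -0.47, and higher after quantile normalization, at 0.26. RP11-867G23.4 against RAB1B, RP11-498C9.13 against PYCR1, AC005253.4 against KXD1 and RP11-864G5.3 against YAP1 did not pass either. RP11-864G5.3 shows the spread within a group: it was listed at 93.1 and 64.2 FPKM with the empty vector and at 95.1 and 65.1 FPKM with the CRYM vector. CTD-2369P2.4, against the mitochondrial ribosomal protein gene MRPL4, was at 90.5 and 92.1 FPKM against 69.3 and 72.9 FPKM. It fell by 0.36 on the log2 scale (SE 0.04, limma adjusted p = 0.0164), and its groups did not overlap.

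Between the groups, 47 of the 291 members were higher with the CRYM vector and 31 were lower (limma adjusted p under 0.05 over 10091 tested loci). These are 16.2% and 10.7% of the members, beside 15.7% of all tested loci higher and 17.7% lower. The share called in either direction was 26.8%, beside 33.3%, and the median log2 difference was 0.10, beside 0.01. The groups did not overlap in 191 members, 65.6%, beside 72.2% of all tested loci. Of the members, 21 reached the level in both CRYM vector libraries and neither empty vector library, and 5 the reverse, so these had to differ. Of the 21, 11 were called higher, and of the 5, 4 were called lower. Of the 209 members at the level in all 4 libraries, 34 were higher and 26 lower, a count added after the values were seen. The share called among all tested loci at the level in all 4 libraries was not counted.

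The direction of the calls followed the level in the members as in all loci. Of the 77 members with a mean of at least 10 FPKM, 10.4% were higher and 22.1% lower, beside 13.5% and 25.5% of all 5438 tested loci at that level. Of the 106 members under 2 FPKM, 14.2% were higher and 4.72% lower, beside 15.0% and 5.08% of 1379 loci. When every library was scaled to the same total FPKM, which shifted the median difference of all loci by -0.53, 6 members were higher and 112 lower. This total is the sum over every listed row of a library, the very short loci of large FPKM included. How far those loci set the total was not tested. With quantile normalization 21 were higher and 28 lower. Without any 1 of the 4 libraries no locus passed the adjusted threshold in limma, and 82 to 98 members had an unadjusted p under 0.05, compared with 111 with all 4.

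**Figure D2:**
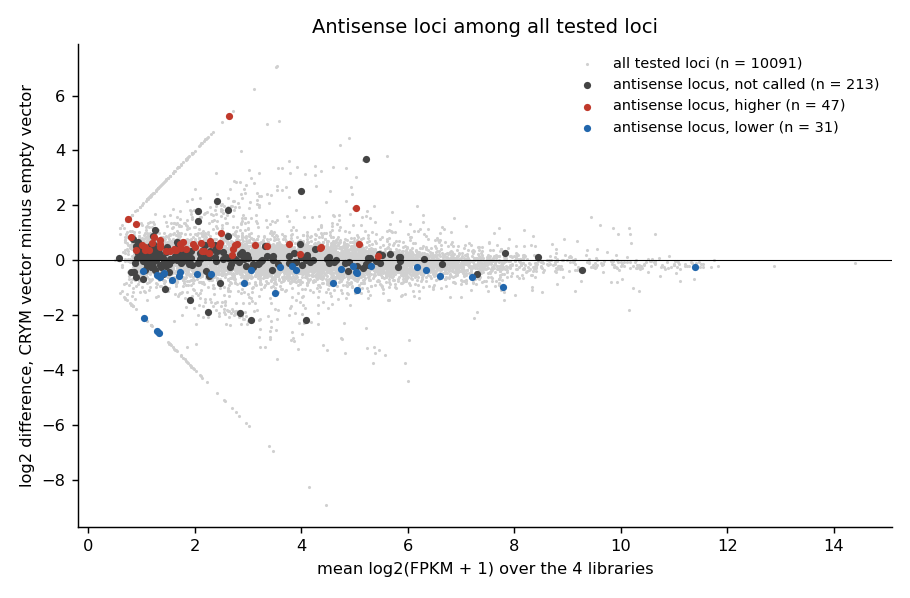
Log2 difference of log2(FPKM + 1), CRYM vector minus empty vector (vertical), against mean log2(FPKM + 1) over the 4 libraries (horizontal), for all 10091 tested loci in grey and the 291 antisense loci in colour by call. The 31 members called lower have a median level of 11.3 FPKM and include the member of highest level, and the 47 called higher have a median level of 3.08 FPKM. Loci on the diagonal edges are listed at 0 in both libraries of a group.

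RP11-787I22.3 and RP11-442H21.2 changed in the same direction as the genes they overlap, and those genes, SESN1 and DDIT4, both encode inhibitors of the growth kinase complex mTORC1. RP11-787I22.3 (hg19 chromosome 6, 109319685 to 109320328) was listed at 17.3 and 14.8 FPKM with the empty vector and at 66.0 and 57.8 FPKM with the CRYM vector. All CRYM vector values lay above all empty vector values, a 3.86-fold rise (16.1 ± 1.81 to 61.9 ± 5.81 FPKM, SD, n = 2) with a log2 difference of 1.88 (SE 0.12, limma adjusted p = 0.00859). The SESN1 locus rose from 20.0 and 18.6 to 71.5 and 67.0 FPKM, a log2 difference of 1.79 (SE 0.06, limma adjusted p = 0.00489). The log2 ratio of the antisense locus to SESN1 differed by 0.09 (SE 0.09, limma adjusted p = 0.603).

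RP11-442H21.2 (hg19 chromosome 10, 74034673 to 74035738), whose 847 exon bases all lie over exons of DDIT4, moved the other way. It was at 305 and 310.4 FPKM with the empty vector and at 152 and 162 FPKM with the CRYM vector, with no overlap of the groups. The level was 1.96-fold higher with the empty vector, a log2 difference of -0.97 (SE 0.04, limma adjusted p = 0.00615). DDIT4 fell from 209 and 213 to 94.3 and 102 FPKM, a log2 difference of -1.10 (SE 0.05, limma adjusted p = 0.00615). The ratio of the 2 loci differed by 0.13 (SE 0.06, limma adjusted p = 0.345).

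RP11-161H23.5, against the alpha-tubulin gene TUBA1C, was at 123 and 115 FPKM against 81.7 and 76.1 FPKM, close to TUBA1C itself at 123 and 115 against 78.3 and 77.5 FPKM. Both groups were apart at both loci, and the log2 differences were -0.58 (SE 0.06) and -0.60 (SE 0.04, limma adjusted p = 0.0163 and 0.0103). RP11-192H23.5, against the aldolase gene ALDOC, fell from 187 and 178 to 109 and 129.7 FPKM, a log2 difference of -0.61 (SE 0.10, limma adjusted p = 0.0341). The widest locus over it (hg19 chromosome 17, 26782770 to 26972472) carries no name and was at 82.4 and 78.2 against 70.5 and 69.7 FPKM, a difference of -0.19. The call of RP11-192H23.5 was lost with quantile normalization, at -0.45 (limma adjusted p = 0.0664), and with no filter on FPKM (adjusted p = 0.0720).

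**Figure D3:**
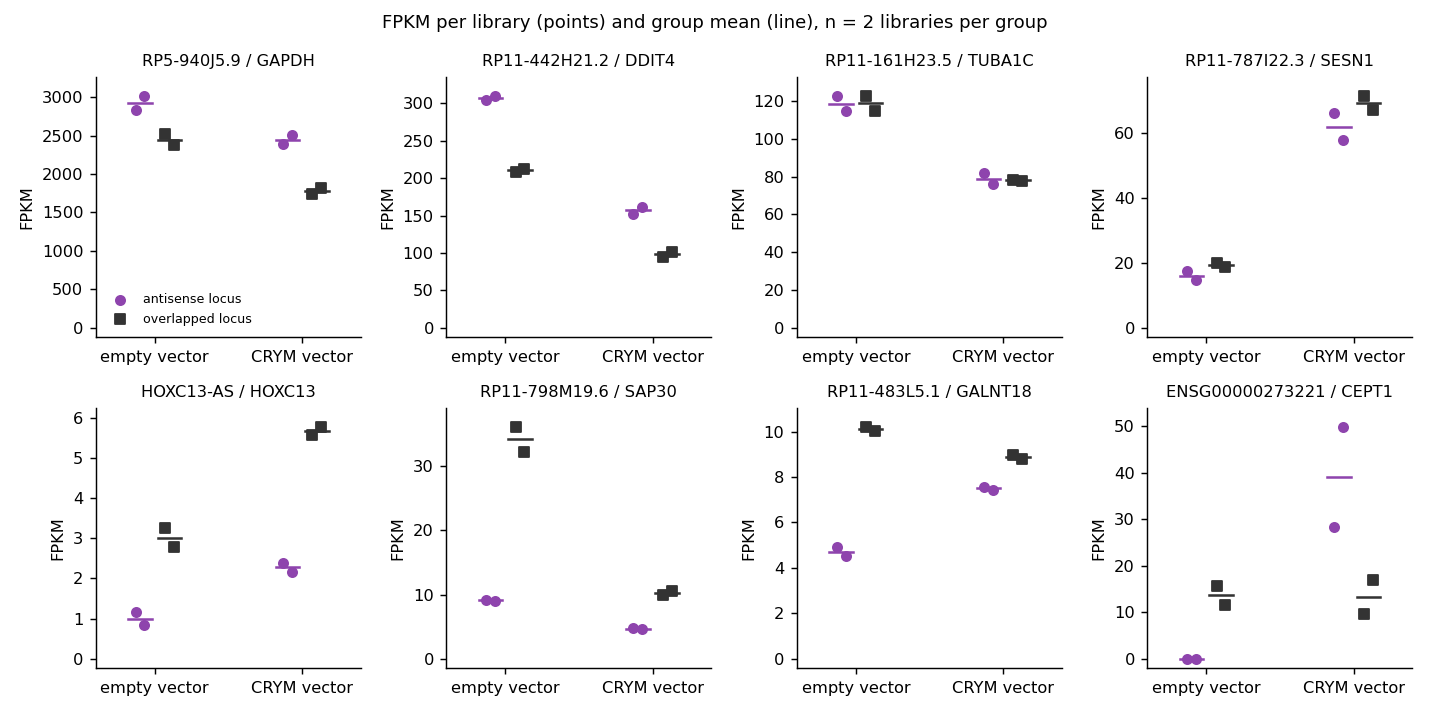
FPKM (vertical, linear from 0) of 8 antisense loci (circles) and their overlapped loci (squares) in each library, with the group mean as a line, 2 libraries per group. The pairs with GAPDH, DDIT4, TUBA1C, SESN1, HOXC13 and SAP30 move in the same direction, while RP11-483L5.1 rises as GALNT18 falls, and ENSG00000273221 is listed at 0 in both empty vector libraries.

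The largest rises among members with no library at 0 also held RP11-298D21.1, now named CEDORA, within the span of the cadherin gene CDH13 but off its exons. It was at 0.151 and 0.218 FPKM against 1.36 and 2.69 FPKM, a 10.9-fold higher mean at low level and a log2 difference of 1.32. It reached the level criterion through the CRYM vector libraries alone, so it had to differ and its values are a description. CDH13 stood at 0.0714 to 0.184 FPKM and was not tested. RP13-401N8.1, on chromosome 20 with no opposite protein-coding gene, rose from 3.63 and 2.51 to 7.13 and 6.73 FPKM, a log2 difference of 0.98 (SE 0.17, limma adjusted p = 0.0355).

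HOXC13-AS (hg19 chromosome 12, 54329112 to 54333427) overlaps the start of the homeobox gene HOXC13 and rose from 1.16 and 0.827 to 2.38 and 2.17 FPKM. HOXC13 rose from 3.25 and 2.77 to 5.58 and 5.79 FPKM, and neither locus had overlapping groups. The log2 differences were 0.72 (SE 0.12, limma adjusted p = 0.0329) and 0.74 (SE 0.08, limma adjusted p = 0.0183). AC010761.14 (overlapping TLCD1), AC068039.4 and AC084219.4 (against ZNF224) rose by 0.69, 0.66 and 0.61 on the log2 scale. RP11-816J6.3 (against ACTRT3), AP003774.1 and RP11-57H12.5 (overlapping RWDD3) had differences of 0.86, 0.84 and 0.64. These 3 reached the level through the CRYM vector libraries alone, so they too had to differ. With quantile normalization RP11-298D21.1, RP13-401N8.1, RP11-816J6.3, AP003774.1, HOXC13-AS and AC010761.14 did not pass. With the same total RP13-401N8.1, HOXC13-AS, AC010761.14, AC068039.4, RP11-57H12.5 and AC084219.4 did not, and AC010761.14, AC068039.4, RP11-57H12.5 and AC084219.4 came to 0.21, 0.23, 0.30 and 0.12. With no filter on FPKM AC068039.4 and AC084219.4 of these kept their call, as did RP11-787I22.3, and RP11-298D21.1 also lost its call with a mean of at least 1 FPKM as the filter.

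Among called members with no library at 0, the largest fall was that of RP11-360L9.7, against GINS4, a subunit of the GINS complex of replication forks. It was at 14.9 and 17.3 FPKM with the empty vector and at 5.94 and 7.08 FPKM with the CRYM vector. Its groups did not overlap, with a log2 difference of -1.19 (SE 0.12, limma adjusted p = 0.0168). AC011558.5 fell from 38.9 and 56.5 to 22.1 and 21.5 FPKM, a log2 difference of -1.07 (SE 0.21, limma adjusted p = 0.0455), and RP11-229P13.23, against SAPCD2, from 32.0 and 31.0 to 16.5 and 17.8 FPKM, a difference of -0.84 (SE 0.05, limma adjusted p = 0.00820). AC011558.5 did not pass with quantile normalization, with no filter or with a mean of at least 1 FPKM as the filter (limma adjusted p = 0.0534, 0.0930 and 0.0521). RP11-809N8.2, RP5-977B1.11 and RP11-227F19.5 (overlapping LIMCH1) fell by 0.72, 0.60 and 0.59 on the log2 scale. RP11-809N8.2 lies against RELT, a receptor of the tumour necrosis factor receptor family. None of these 3 passed with no filter on FPKM.

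Some members were listed at 0 in both libraries of a group, where no fold can be given. The locus ENSG00000273221 (hg19 chromosome 1, 111727037 to 111727683), whose 647 exon bases lie over the untranslated region of the phospholipid synthesis gene CEPT1, was listed at 0 in both empty vector libraries and at 28.3 and 50.0 FPKM in the CRYM vector libraries. The deposited bounds were 25.7 to 31.0 and 46.5 to 53.4 FPKM there. CEPT1 was at 15.6 and 11.6 against 9.61 and 17.0 FPKM, with overlapping groups.

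The 3 members listed at 0 in both CRYM vector libraries were CTD-2619J13.9, RP3-325F22.5 and RP11-96K19.5. CTD-2619J13.9, against ZNF497, stood at 5.37 and 5.16 FPKM with the empty vector, and its widest overlapping locus, AC012313.3, at 37.0 and 38.0 against 9.11 and 9.36 FPKM. RP3-325F22.5, now MAP7-AS1, against the microtubule-binding protein gene MAP7, stood at 4.32 and 5.64 FPKM, and RP11-96K19.5, against the nuclear receptor interactor gene LRIF1, at 3.04 and 3.56 FPKM. CTB-58E17.3 was listed at 0 in both empty vector libraries and at 1.99 and 1.70 FPKM with the CRYM vector. All 5 reached the level criterion through the other group alone, so they had to differ and their values are a description.

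A listed 0 was not limited to a group. At 21 members a single library of a group was at 0 while the other was not, and 0 of these were called. At 4 of them this held in both groups, as at RP11-950C14.3, against EIF2B2, listed at 0 and 12.9 FPKM with the empty vector and at 0 and 12.3 FPKM with the CRYM vector. CTD-2545M3.2, among the 12 highest members, was at 106 and 0 against 131 and 134 FPKM, while the unnamed locus that overlaps it was at 49.6 and 58.2 against 62.4 and 63.0 FPKM. RP1-56K13.3, against the actin-binding protein gene LASP1, was at 37.1 and 33.8 against 0 and 62.4 FPKM, while LASP1 was at 14.7 and 14.5 against 32.6 and 28.2 FPKM. RP11-124N14.3, against the intermediate filament gene VIM, was at 0 and 5.40 against 10.1 and 10.6 FPKM, while VIM was at 12.3 and 9.96 against 23.9 and 23.7 FPKM. The last 2 and RP11-950C14.3 were chosen after their values were seen. In these pairs the overlapped locus was well above 0 in the library where the antisense locus was listed at 0, and a listed 0 is not read here as an absence of RNA.

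For 198 members another listed locus overlapped, and for 93 none did at a position shared by all 4 libraries. Those 198 members point to 197 distinct loci, of which 155 were tested. Of these 155 overlapped loci, 29 (18.7%) were higher with the CRYM vector and 36 (23.2%) lower, beside 15.7% and 17.7% of all tested loci. In 26 pairs both loci passed, and in 25 of them the direction was the same, 12 higher and 13 lower. The counts in this paragraph include loci that reached the level through 1 group alone and had to differ. CTB-58E17.3 and CTD-2619J13.9 are such members among the 25. Of these 25 pairs, 20 were exon over exon, and the 2 loci of a pair share bases and libraries. The overlapped locus need not be the opposite gene. Over all 155 member pairs the differences had the same sign in 96. The agreement among overlapping pairs of other biotypes was not counted. In 8 pairs the member was called higher and in 5 lower where the overlapped locus was not called. The overlapped locus alone was called higher in 17 pairs and lower in 22. Across 91 exon over exon pairs the log2 differences had a Pearson r of 0.36 (Spearman rho 0.58), and across 49 pairs within a gene span of 0.23 (rho 0.34).

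**Figure D4:**
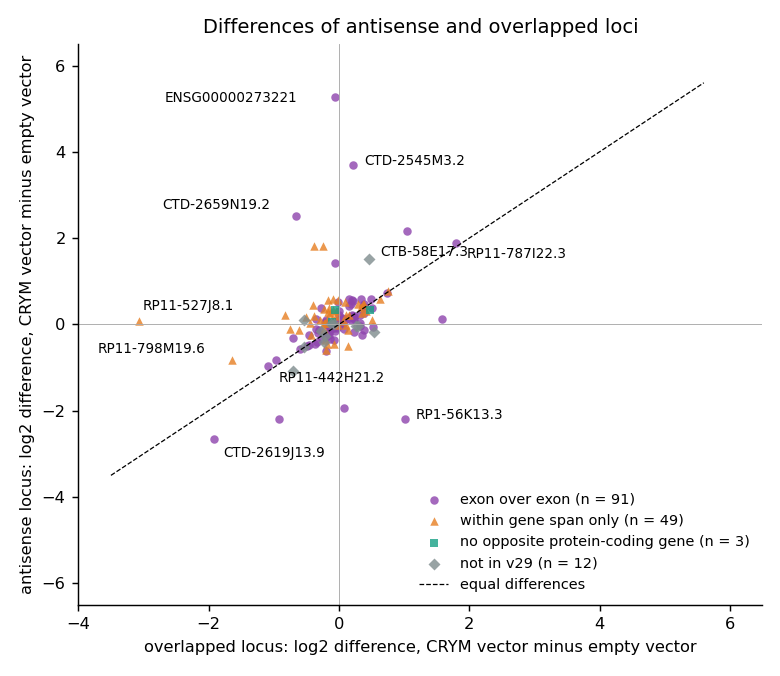
Log2 difference of the antisense locus (vertical) against that of its overlapped locus (horizontal), CRYM vector minus empty vector, for 155 pairs by class, with a dashed line of equal differences. RP11-787I22.3 and RP11-442H21.2 lie near the line, ENSG00000273221 far above it and RP11-527J8.1 far to its left. CTD-2545M3.2, CTD-2659N19.2 and RP1-56K13.3 are listed at 0 in 1 library.

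The ratio of the 2 loci was tested directly over all 2588 overlapping pairs of any biotype, of which 3.48% were higher and 3.75% lower with the CRYM vector, 7.23% in either direction. Of the 155 member pairs, 4 were higher and 0 lower (limma), 2.58% in all, with 27 at an unadjusted p under 0.05. In 3 of the 4 a locus was listed at 0 in both libraries of a group and reached the level through the other group alone, so the pseudocount sets the size of the ratio and these 3 are a description. They are ENSG00000273221 with CEPT1, whose values are given above, CTB-58E17.3 with an unnamed locus, and RP11-527J8.1 with REV1. The unnamed locus over CTB-58E17.3 was at 22.6 and 23.0 against 32.0 and 31.8 FPKM. RP11-527J8.1, within REV1, which encodes a translesion DNA polymerase, did not pass itself (limma adjusted p = 0.707), at 1.15 and 1.64 against 1.55 and 1.47 FPKM. The REV1 locus was at 7.25 and 7.45 FPKM with the empty vector and listed at 0 in both CRYM vector libraries.

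RP11-483L5.1 (hg19 chromosome 11, 11591631 to 11595329), within the span of GALNT18, a gene of the mucin-type O-glycosylation family, but off its exons, was the 1 member called in the opposite direction to its overlapped locus. It rose from 4.93 and 4.51 to 7.58 and 7.45 FPKM, and GALNT18 fell from 10.2 and 10.0 to 8.96 and 8.80 FPKM. No values of the groups overlapped at either locus. The log2 differences were 0.58 (SE 0.06, limma adjusted p = 0.0158) and -0.17 (SE 0.04, limma adjusted p = 0.0481), and the ratio rose by 0.75 (SE 0.07, limma adjusted p = 0.0396). The ratio did not pass with quantile normalization, at 0.69, or among pairs whose overlap covers at least 50% of the locus (limma adjusted p = 0.0565 and 0.113), and the rise of RP11-483L5.1 itself was 0.06 after scaling to the same total.

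The class without an opposite gene had 10 members higher and 0 lower of 46 (limma, adjusted p under 0.05), the class within a gene span 15 higher and 6 lower of 87, and the exon over exon class 19 higher and 22 lower of 139. These are 21.7% and 0%, 17.2% and 6.90%, and 13.7% and 15.8%, beside 15.7% and 17.7% of all tested loci and 15.0% and 5.08% of those under 2 FPKM. With quantile normalization the counts were 3 and 4, 4 and 6, and 12 and 16, and with the same total 1 and 14, 1 and 14, and 3 and 74. With no filter they were 2 and 0, 1 and 1, and 6 and 12, with a mean of at least 1 FPKM 7 and 0, 7 and 5, and 15 and 21, and with no variance trend 11 and 2, 17 and 6, and 20 and 21. The median log2 differences of the 3 classes were 0.16, 0.22 and 0.04, beside 0.01 over all tested loci. The class counts include members that reached the level through 1 group alone and so had to differ. Over all members, 11 of those called higher and 4 of those called lower were of this kind. Their number in each class was not counted. Whether the classes differ in direction was not tested.

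Among the members are 28 whose current symbol ends in -DT, for divergent transcript, a group put together after the values were seen. Of these 8 were higher and 1 lower (limma, adjusted p under 0.05), beside 15.7% and 17.7% of all tested loci. Of tested loci under 2 FPKM 15.0% were higher and 5.08% lower, and the share at the levels of the 28 was not counted. Any of the 28 that reached the level through 1 group alone, and so had to differ, were not counted apart. The log2 differences of the 28 ran from -0.83 to 0.57 with a median of 0.11. With quantile normalization 2 were higher and 3 lower, with the same total 0 and 8, with no filter 2 and 1, with a mean of at least 1 FPKM 5 and 1, and with no variance trend 10 and 3. The highest was RP1-39G22.7, now ZMPSTE24-DT, beside the gene of the protease that matures lamin A, at 10.3 and 10.0 against 16.2 and 15.0 FPKM with no overlap of the groups. LINC01137, now ZC3H12A-DT, beside the gene of an RNase that limits inflammatory mRNAs, was at 6.56 and 6.01 against 9.23 and 9.92 FPKM.

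In the deposited FPKM without rescaling, the promoter pairs printed above moved in the same direction, downward for SAP30 and upward for EIF2AK3. RP11-798M19.6, or SAP30-DT (hg19 chromosome 4, 174284931 to 174291597), fell from 9.17 and 9.04 to 4.73 and 4.64 FPKM, a log2 difference of -0.83 (SE 0.04, limma adjusted p = 0.00628). SAP30, a subunit of the Sin3 histone deacetylase complex, fell from 36.2 and 32.2 to 9.94 and 10.5 FPKM, a difference of -1.65 (SE 0.08, limma adjusted p = 0.00625). The groups were apart at both, and the antisense to gene ratio differed by 0.82 (SE 0.10), which did not pass (limma adjusted p = 0.0578).

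AC062029.1, or EIF2AK3-DT (hg19 chromosome 2, 88927057 to 88931339), rose from 2.00 and 2.28 to 3.13 and 3.08 FPKM. EIF2AK3, the kinase PERK of the unfolded protein response, rose from 8.50 and 8.45 to 12.0 and 10.9 FPKM. Both log2 differences were 0.39 (SE 0.07 and 0.06, limma adjusted p = 0.0413 and 0.0306), and this pair was chosen for its promoter after the values were seen. EIF2AK3-DT was not called higher after scaling to the same total, where 0 of the 28 members named -DT were.

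**Figure D5:**
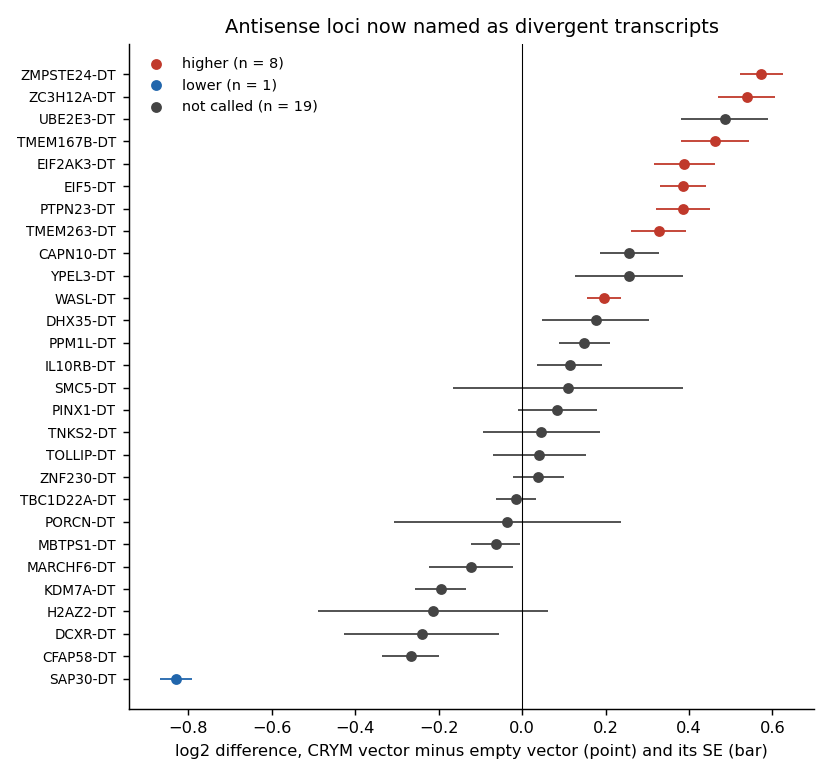
Log2 difference, CRYM vector minus empty vector (point), with its standard error (bar) for the 28 members now named as divergent transcripts, coloured by call, from the deposited FPKM without rescaling. The 8 called higher lie between 0.20 and 0.57, and SAP30-DT, at -0.83, is the 1 called lower.

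Of the antisense RNAs often studied in cancer that were looked for, FOXP4-AS1, listed as RP11-328M4.2, was a member. It was at 12.0 and 10.9 FPKM with the empty vector and at 10.5 and 10.1 FPKM with the CRYM vector. The CRYM vector values were lower, and the log2 difference of -0.14 (SE 0.06) did not pass (limma adjusted p = 0.197). FOXP4, the forkhead factor gene it starts beside, was at 11.5 and 11.5 against 11.9 and 13.6 FPKM, a difference of 0.13 (SE 0.08, limma adjusted p = 0.286).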

How the data were processed

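RNA sequencing tables of 4 libraries were used, 2 per group, grouped by the labels. The deposited values are FPKM per locus with a pair of bounds and a status, per the file headers. They are not counts. Reads were single, of 50 bp, from a stranded mRNA kit, per the labels' protocols. The submitters' processing notes name Cufflinks 2.2.1, Cuffdiff, TopHat2 2.1.1 and Bowtie2 2.2.9, and the builds GRCh37 and hg19.

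The tables were joined by identical position, which gave 52318 loci, and the rows of 27 identifiers with more than 1 locus were summed. Positions are hg19, counted from 1. Names are those of the files. Of 169 unnamed overlapping loci, 131 were named where their offset from the member matched a gene in GENCODE release 29 within 2000 bp or 5% of the width. The same match gave the right identifier for 26 of 27 loci named in the files. Classes come from that release by Ensembl identifier, and 267 members had a current symbol in a reference table of gene names.

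The test took loci of status OK throughout with 1 FPKM or more in 2 libraries or more, 10091 in all. Values were put on the log2(FPKM + 1) scale and tested, two-sided and with a variance trend, in limma 3.58.1 under R 4.3.3, with Benjamini-Hochberg adjustment at 0.05 over all loci. This scale understates the change of low loci, and folds are ratios of mean FPKM. The log2 ratio of a locus to its widest overlapping locus, each plus 1, was tested alike over 2588 pairs. Relative depth is the inverse ratio of the most frequent FPKM above 0 at loci of 60 bp. On simulated data the fit over 10091 loci recovered 40%, 74%, 88% and 82% of 50 loci changed by 0.5, 1, 2 and 3 on the log2 scale, with 9 false calls, and the ratio fit over 2588 pairs 16%, 30%, 58% and 64%, with 7. Recovery was not split by level, and how far it holds for the 106 members with a mean under 2 FPKM was not tested. Alternatives covered the pseudocount, the filter, 3 scalings, the variance model and the replicate number. They also covered the choice of overlapped locus and each library left out in turn.

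The members, lists and tests were chosen with earlier results of these data known. The named loci are the 12 of highest mean, the 10 largest rises and 10 largest falls past the threshold with separate groups and no library at 0, up to 4 at 0 in a group, members on a list of studied antisense RNAs, up to 6 ratio changes each way, 3 on each side of the level criterion, and CRYM. Another antisense locus is not reported here. Python 3.11.15, numpy 2.4.6, pandas 2.3.3 and matplotlib 3.10.9 were used.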

Additional observations from a re-analysis of the deposited data

How the results depend on the processing

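With the replicate number as a block, limma called 0 members, 0 overlapped loci, 0 of all tested loci and 0 member ratios in either direction, with 104 members and 3819 loci at an unadjusted p under 0.05. The deviations of same-numbered libraries from their group means had a correlation of 0.0361 over the tested loci. Whether the numbers pair the samples was not tested, since a correlation pooled over loci cannot decide it. Leaving out each library in turn, the counts of members, overlapped loci, all tested loci and member ratios called by limma ranged from 0 to 0 in both directions, with 82 to 98 members and 3627 to 3815 loci at an unadjusted p under 0.05 and a smallest adjusted p of 0.0550 to 0.0713.

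Scaled to the same total, 6 members were higher and 112 lower, 3 overlapped loci higher and 112 lower, and of all tested loci 297 higher and 6257 lower. There 61 of the 78 called members kept their direction, and RP11-138I1.4 was called lower, at -0.47. With quantile normalization 21 members were higher. With a mean of at least 1 FPKM as the filter 31 members were higher, of 280. With no filter 11 members were higher and 13 lower, 15 overlapped loci higher and 19 lower, and of 26476 loci 788 higher and 1082 lower. With a pseudocount of 0.1 or 0.5, with no filter, or with no trend in the variance model 1 member ratio was lower. Where the overlap had to cover at least 50% of the locus, 2 of 129 ratios were higher. The causes of these shifts were not tested, beyond the fewer or more loci and libraries that each setting holds. Under the other settings these counts of members, overlapped loci, all loci and ratios lay within 1.5 times those reported. Of 823 values of single loci under an alternative 28 had another sign than the reported value, and in 1 of them, RP11-138I1.4, the reported or the alternative value had passed the threshold. Among the others RP11-867G23.4 went from 0.25 to -0.35 and RP11-864G5.3 from 0.03 to -0.57 with the same total.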

Other observations

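The tables list 3995 antisense identifiers in at least 1 library, of which 3858 have a position shared by all 4 libraries. The other 137 enter no comparison. An identifier was given in all 4 libraries for 196 of the 291 members and in 1 library only for 30, so a join by identifier would have lost members that a join by position keeps.

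The depth behind a value is not given in the files, and with 2 libraries per group a difference under the spread within a group was not detectable. Names were carried by 29 of the 198 overlapping loci, and the others are named by position or not at all. In the simulated data, whose sizes of change are given above, changed ratios were recovered less often than changed single loci. A ratio that did not pass does not show that both loci moved alike.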
